A study of Tachysurus fulvidraco x Tachysurus vachelli with 6 samples.

Results

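Transcript levels of 3 cytokine receptor genes were examined in the skin of juvenile hybrid yellow catfish: the tumor necrosis factor (TNF) receptor superfamily member 5-like gene LOC113634305, rell1 and il7r. They were taken by gene name from the 2451 complete gene rows of the deposited table, and all 3 were among the 1620 that passed the filter on low values. They had been picked after their difference between transported and control fish was known, so for these 3 genes that difference is described without a test. The fish were crosses of a Tachysurus fulvidraco mother and a P. vachellii father, and the skin came from the left flank behind the dorsal fin. The 16-h transport group (3 libraries) was fasted, sealed in oxygen-filled bags of fresh water and shaken on a transport simulator for 16 h. The control group (3 libraries) was untreated and came from the recirculating system in which all fish had been kept. The sources used here do not say whether the controls were fasted too, nor how many fish went into each library, so p-values measure only the spread between these libraries.

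Members of the TNF receptor superfamily are transmembrane proteins that bind trimeric ligands outside the cell and recruit adaptor proteins such as the TRAFs inside it. In mammals, member 5 of the superfamily is CD40, which B cells, dendritic cells, macrophages and epithelial cells carry. Its ligand, CD40 ligand, is shown by activated T cells, and the receptor drives NF-κB, including the branch that ends in RelB. RELT-like protein 1, the product of rell1, is a small membrane protein related to RELT, a superfamily member. The interleukin-7 receptor alpha subunit, the product of il7r, pairs with the common gamma chain and signals through JAK kinases and STAT factors. In mammals it keeps naive and memory T cells alive.

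The counts of the table summed to 3726582 to 4487002 per transport library and to 3632651 to 4430981 per control library, which is 12.03% to 12.46% of the mapped reads of each library. The table therefore covers part of the genes. Control replicate 1 stood apart from the others. Its TMM factor, the scaling that edgeR derives from the bulk of the genes, was 0.712, against 1.05 to 1.17 in the transport libraries and 0.968 and 1.04 in the remaining controls. The skeletal muscle list matched 9 genes of the table, some of which are described as smooth muscle-like or cardiac muscle-like. These 9 muscle genes summed to an FPKM (a read level corrected for the length of the transcript and the depth of the library) of 2441 to 4439 in transport libraries and of 11063, 6573 and 2258 in control replicates 1, 2 and 3. For this reason FPKM values are given below as deposited and, where it matters, also divided by the TMM factor. Of the markers of epidermis agr2, a gene of mucus-secreting cells, was in the table, with an FPKM of 97.1 to 172 after transport and 61.1 to 204 in control skin. Of the dermal genes, sparc was uneven between libraries, with an FPKM of 853, 2111 and 1322 in transport replicates 1, 2 and 3 and of 4408, 282 and 1363 in control replicates 1, 2 and 3, while mmp2 had 73.5 to 130 after transport and 90.8 to 129 in control skin. The keratin genes of epidermis were not analysed here.

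LOC113634305 lies on scaffold NW_020848146.1 from 881083 to 896798 on the minus strand and has 10 annotated transcripts. rell1 lies on scaffold NW_020848182.1 from 62680 to 88399 and il7r on scaffold NW_020848170.1 from 399812 to 406172, both on the minus strand and each with 1 transcript. Positions are those of the table. The study gives human as the reference in its methods but yellow catfish in its results, the gene descriptions of the table name Tachysurus fulvidraco, and no source used here names the build. All 3 genes are annotated to the cytokine-cytokine receptor interaction pathway and to integral component of membrane. LOC113634305 is also annotated to TNF-activated receptor activity, inflammatory response and response to lipopolysaccharide, and il7r to T cell differentiation in thymus and to JAK-STAT regulation. The levels of the 3 genes differed widely. In transport libraries il7r had the highest mean FPKM and exceeded that of 88.8% of the genes tested, followed by rell1 with 86.9% and LOC113634305 with 12.5%. In control libraries the same order held, with 93.4% for il7r, 78.0% for rell1 and 53.9% for LOC113634305. The ranges of il7r and rell1 overlapped after transport and not in control skin, and LOC113634305 was below both in every library.

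LOC113634305 had an FPKM of 0.718, 1.88 and 0.975 in transport replicates 1, 2 and 3, against 4.01, 4.47 and 7.64 in control replicates 1, 2 and 3. The highest transport library, replicate 2, was still below the lowest control library. The groups did not overlap, as for 3.7% of all genes tested in this direction. The means were 1.19 ± 0.610 after transport and 5.37 ± 1.97 in control skin (SD, n = 3 each), a level 4.51-fold lower in transported fish. Its log2 fold change was -2.44 ± 0.42 (SE) from the edgeR fit over all genes. The values rested on 245, 699 and 400 reads in the transport libraries and on 1669, 1492 and 2773 reads in the control libraries. The estimate was -2.97 ± 0.29 (SE) without transport replicate 2 and -2.44 ± 0.48 (SE) without control replicate 1. Control replicate 3, the highest library for LOC113634305, had the lowest sum of the muscle genes (2258). Transport replicate 1, the lowest library for LOC113634305, had the next lowest sum (2441), and control replicate 1 had the highest (11063). Of that 11063, the myosin light chain-like gene LOC113636033 alone gave 9075, so the sum mostly follows this gene. Of the 8 muscle genes tested, DESeq2 called 2 lower and 0 higher after transport, against 5.12% and 4.38% of all genes. Their median log2 fold change in edgeR was -0.75, against -0.02 over all genes tested. By raw p under 0.05 edgeR placed 2 of the 8 lower and 0 higher, against 9.14% and 7.72% of all genes. These were the smooth muscle-like LOC113634552 and the cardiac muscle-like LOC113636534. The part of muscle in the level of LOC113634305 was not tested. In bulk skin, fewer cells that carry a receptor and less of its mRNA per cell cannot be told apart.

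rell1 was higher in transported fish and was the most even of the 3 genes between libraries. Its FPKM was 26.4, 24.5 and 26.1 in transport replicates 1, 2 and 3, against 9.93, 13.5 and 15.8 in control replicates 1, 2 and 3. The groups did not overlap, as for 24.1% of all genes tested in this direction. The means were 25.7 ± 0.986 after transport and 13.1 ± 2.98 in control skin (SD, n = 3 each), a level 1.96-fold higher after transport. Divided by the TMM factors, the level was 22.5, 23.3 and 23.2 in transport libraries and 13.9, 13.9 and 15.2 in control libraries. The scaling brought the coefficient of variation to 1.94% in transport libraries and 5.02% in control libraries, from 3.84% and 22.7% as deposited. Of the genes tested, 2.47% had a smaller spread of log2(FPKM + 0.5) between scaled transport libraries and 5.74% between scaled control libraries. The scaling also set the size of the difference. The log2 fold change of rell1 was 0.67 ± 0.11 (SE) with TMM factors, where the median of all genes tested was -0.02, and 0.97 ± 0.24 (SE) with mapped reads alone, where that median was 0.27. Without control replicate 1 it was 0.67 ± 0.12 (SE).

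il7r was the most abundant of the 3 genes and had the least separated groups. Its FPKM was 41.8, 18.3 and 31.7 in transport replicates 1, 2 and 3, against 25.4, 52.8 and 48.1 in control replicates 1, 2 and 3. The deposited values overlapped, since control replicate 1 lay below transport replicates 1 and 3. After division by the TMM factors the transport libraries were at 35.59, 17.4 and 28.2 and the control libraries at 35.63, 54.6 and 46.1, so that the highest transport library and the lowest control library were level. The means as deposited were 30.6 ± 11.8 after transport and 42.1 ± 14.7 in control skin (SD, n = 3 each), 1.38-fold lower in transported fish. The log2 fold change was -0.75 ± 0.30 (SE), -1.002 without transport replicate 1 and -0.50 without transport replicate 2. It was -0.88 without control replicate 1 and -0.46 ± 0.38 (SE) with mapped reads alone. The spread of il7r between scaled transport libraries was larger than that of 89.9% of the genes tested, as was that of LOC113634305 for 90.9%.

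**Figure D1:**
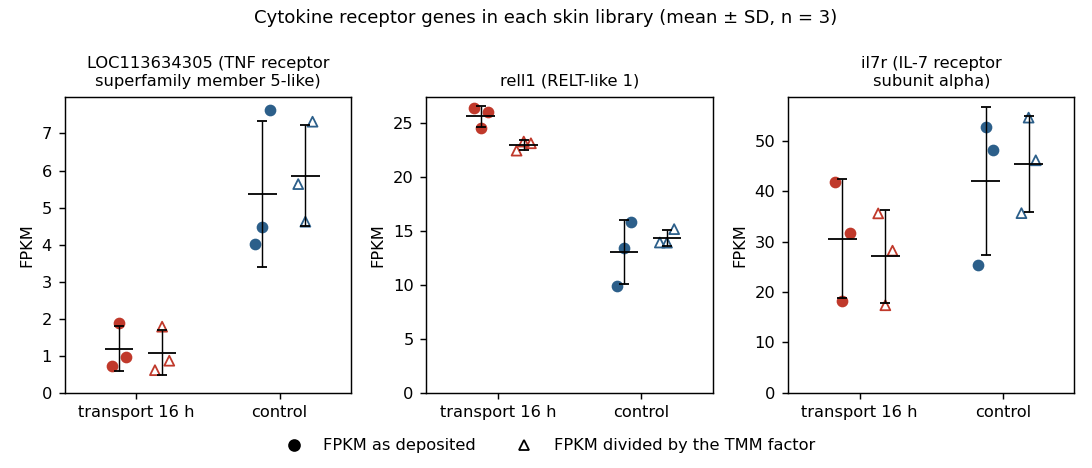
FPKM (vertical axes) of LOC113634305, rell1 and il7r in the 3 transport libraries (red, left) and the 3 control libraries (blue, right). Filled circles are values as deposited (bars, mean ± SD) and open triangles are values divided by the TMM factor; the groups are apart for LOC113634305 and rell1, and for il7r they overlap as deposited and meet at 35.59 and 35.63 after scaling.

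As log2 ratios of the mean deposited FPKM, transport over control, the differences were -2.17 for LOC113634305, 0.97 for rell1 and -0.46 for il7r. With FPKM divided by the TMM factors, all 3 genes had groups that did not overlap, as did 10.9% of all genes in the lower direction and 13% in the higher. The 3 genes were chosen for this difference, so nothing is read from that count.

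**Figure D2:**
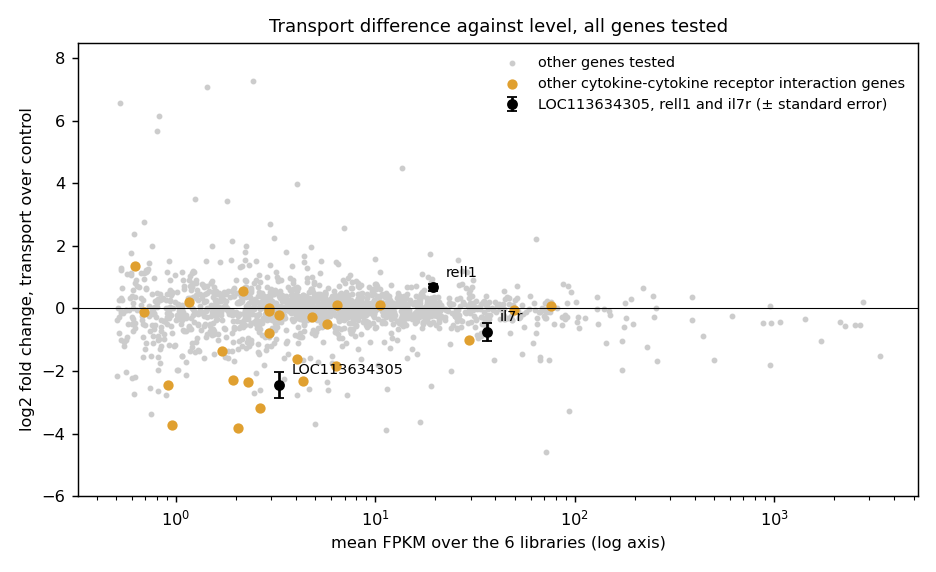
Log2 fold change of transport over control (vertical axis) against the mean FPKM of the 6 libraries (horizontal log axis) for the 1620 genes tested (grey), the 25 other tested genes of cytokine-cytokine receptor interaction (orange) and LOC113634305, rell1 and il7r (black, ± standard error). LOC113634305 lies at -2.44 and il7r at -0.75, while rell1 lies at 0.67.

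LOC113634305 is not alone on its scaffold. Between 865548 and 993001, all on the minus strand, the table has 7 genes described as like TNF receptor superfamily member 5 or member 14, where member 14 is known in mammals as HVEM, a receptor that tunes T cell activation. In order of position they are LOC113634309, LOC113634312, LOC113634305, LOC113634303, LOC113634308, LOC113634310 and LOC113634306. They are called copies here by name and position alone, since their sequences were not compared. The copies had unlike values. LOC113634306, another member 5-like copy and the most abundant after transport, had an FPKM of 8.24, 5.91 and 7.82 in transport libraries and 4.62, 5.18 and 6.53 in control libraries. The groups overlapped, and the log2 fold change was 0.11 ± 0.17 (SE, edgeR adjusted p = 0.763).
The FPKM of LOC113634305 was 0.0871, 0.318 and 0.125 times that of LOC113634306 in transport replicates 1, 2 and 3, and 0.869, 0.863 and 1.17 times in control replicates 1, 2 and 3. This ratio is taken within a library and does not depend on the scaling between libraries. Both genes were thus near the same level in control skin, and the ratio did not overlap between the groups. LOC113634305 was chosen for its difference, so nothing is read from that separation.

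The copies on either side of LOC113634305 had lower estimates after transport with overlapping groups. LOC113634312, member 14-like, had an FPKM of 0.109, 0.313 and 0.638 in transport libraries and 2.33, 0.404 and 1.66 in control libraries, with 4 to 28 reads and 15 to 104 reads behind them. Its log2 fold change was -2.45 ± 0.94 (SE, edgeR adjusted p = 0.262), and -1.61 without control replicate 1. With mean FPKM of 0.353 after transport and 1.46 in control skin, LOC113634312 met the filter of 0.5 only through control libraries. LOC113634303, also member 14-like, had an FPKM of 0.959, 1.198 and 1.096 in transport libraries and 1.76, 0.956 and 4.22 in control libraries. As deposited, control replicates 1 and 3 lay above every transport library and control replicate 2 lay below them. The log2 fold change was -1.36 ± 0.50 (SE, edgeR adjusted p = 0.242). It was -0.85 without control replicate 3 and -1.74 without control replicate 2. LOC113634309, at the near end of the row, had 0 reads in every transport library and in control replicate 2, and 107 and 175 reads in control replicates 1 and 3. LOC113634308 and LOC113634310 stayed at or below an FPKM of 0.347 in every library and, with LOC113634309, were below the filter. Near-identical copies can share reads, which the counting may have split between them, but whether these genes do was not tested. When the reads of all 7 were summed, a step added after the data had been seen, the libraries held 1625, 2033 and 2077 reads after transport and 3138, 2453 and 4987 in control skin. The log2 fold change of the sum was -1.20 ± 0.23 (SE), and that of the other 6 copies without LOC113634305 was -0.40 ± 0.25 (SE). LOC113634305 made up 15.1%, 34.4% and 19.3% of the summed reads in transport replicates 1, 2 and 3, and 53.2%, 60.8% and 55.6% in control replicates 1, 2 and 3.

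**Figure D3:**
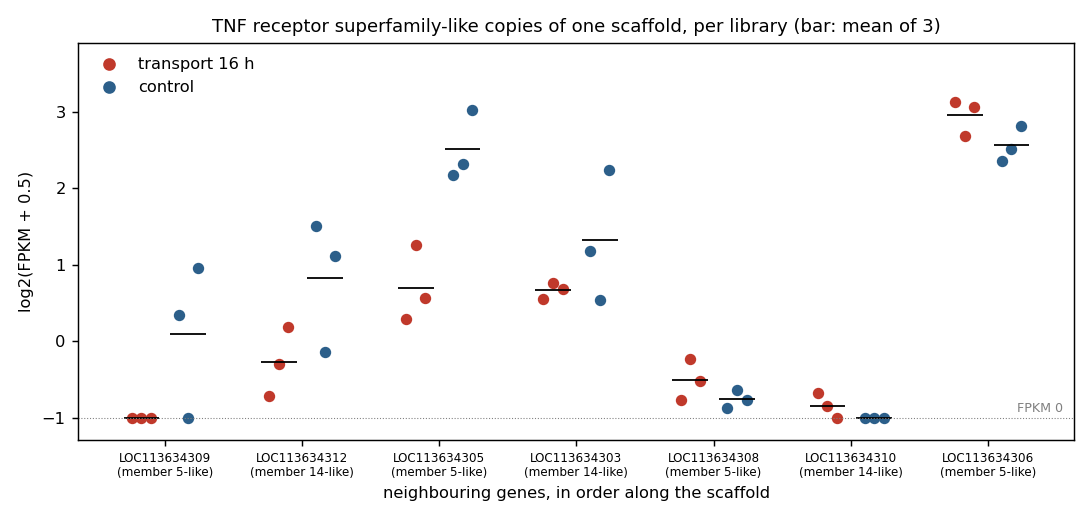
Log2(FPKM + 0.5) (vertical axis) of the 7 neighbouring TNF receptor superfamily-like genes in their order along the scaffold, with transport libraries in red on the left and control libraries in blue on the right of each position and a bar at the mean of 3. Of the 7, LOC113634305 alone has groups that do not overlap, as for 3.7% of all genes tested in this direction, and it was chosen for its difference. LOC113634306 has an FPKM of 5.91 to 8.24 after transport and 4.62 to 6.53 in control skin.

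Other parts of the CD40 pathway were read from a list of its ligand, adaptors and NF-κB factors. The CD40 ligand-like gene LOC113635687 had an FPKM of 3.36, 2.503 and 3.76 in transport libraries and 1.65, 2.12 and 4.20 in control libraries, and the groups overlapped. Of the 6 adaptor and NF-κB genes tested, edgeR called 0 at a Benjamini-Hochberg adjusted p under 0.05, where 0.247% of the 1620 genes tested were called lower after transport and 0.37% higher. By raw p under 0.05, edgeR placed 4 of the 6 lower and 0 higher, against 9.14% lower and 7.72% higher among all genes tested. DESeq2 called 4 lower and 0 higher, against 5.12% and 4.38% of all genes, and limma called 0, against 0.123% lower and 0.617% higher. The median log2 fold change of the 6 was -0.72, against -0.02 over all genes tested. The list was made with earlier results of these data known, and the study reports nfkbia as lower in the same libraries. The direction of the 6 is therefore not independent evidence.
The gene relb encodes the NF-κB subunit that acts downstream of CD40 in the non-canonical branch. It had an FPKM of 8.79, 6.02 and 6.76 after transport and 12.3, 9.71 and 12.9 in control skin (log2 fold change -1.06 ± 0.25 SE, edgeR adjusted p = 0.131). The groups did not overlap, as for 3.7% of all genes tested in this direction. rel and nfkbia, the genes of c-Rel and of the NF-κB inhibitor alpha, had log2 fold changes of -0.94 and -1.97, with adjusted p of 0.159 and 0.0644 in edgeR's test. birc2, which encodes a ubiquitin ligase bound to TRAF adaptors, had an FPKM of 55.4 to 62.4 after transport and 45.8 to 90.8 in control skin. Divided by the TMM factors, birc2 had 52.6 to 54.8 after transport and 64.3 to 87.0 in control skin. These scaled groups did not overlap, as for 10.9% of all genes tested in this direction. The log2 fold change of birc2 was -0.49 ± 0.15 (SE, edgeR adjusted p = 0.210). The TRAF adaptor gene traf6 and the kinase gene chuk had log2 fold changes of 0.30 ± 0.18 (SE) and 0.17 ± 0.23 (SE).

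The 7 B cell markers of the table, set beside LOC113634305 because B cells carry CD40, summed to an FPKM of 1.89 to 8.03 in transport libraries and 0.691 to 2.21 in control libraries. The CD22-like gene LOC113636359, like a B cell surface lectin, had 425, 4 and 310 reads after transport and 0 in each control library (edgeR adjusted p = 0.195). Its FPKM of 6.26, 0.0469 and 3.81 in transport replicates 1, 2 and 3 is part of the sum above. With 0 reads in the controls, it passed the filter on low values through transport libraries alone. Nothing is therefore read from a call of this gene. Of the 2 B cell markers tested, DESeq2 called 1 higher and 0 lower, against 4.38% and 5.12% of all genes. With limma 0 were called, against 0.617% higher and 0.123% lower. The B cell factor gene pax5 had an FPKM of 0.178 to 0.572 after transport and 0.217 to 0.250 in control skin, and cxcr5, a chemokine receptor gene of B cells, 1.204 to 1.47 and 0.406 to 1.93. Another CD22-like gene, 1 of the 7 markers, had 0 reads in every library. The remaining CD22-like genes had 0 to 13 reads per transport library and 0 to 21 reads per control library. The 3 macrophage mannose receptor-like genes summed to an FPKM of 0.701 to 0.779 after transport and 0.0267 to 1.101 in control skin. The part of these cells in the level of LOC113634305 was not tested.

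The receptor and ligand genes of the remaining TNF family were read in the same way. LOC113634355, like member 27, which in mammals is an ectodysplasin receptor of skin, had an FPKM of 1.38, 0.847 and 0.660 in transport libraries and 0.337, 0.271 and 0.223 in control libraries. Its groups did not overlap, as for 24.1% of all genes tested in this direction. The log2 fold change of LOC113634355 was 1.36 ± 0.52 (SE, edgeR adjusted p = 0.258) on 51 to 88 reads and 16 to 27 reads per library. Its mean FPKM was 0.963 after transport and 0.277 in control skin, so it met the filter of 0.5 only through transport libraries. LOC113634174, like the death receptor Fas, had an FPKM of 3.05 to 3.83 after transport and 2.69 to 3.45 in control skin. These groups overlapped, and the log2 fold change was -0.20 ± 0.26 (SE, edgeR adjusted p = 0.723). The ligand gene tnfsf12, for the cytokine TWEAK, had 9.44 to 13.9 and 7.77 to 10.9. The TNF-like gene LOC113634667, which the name and description matches of the list missed, had 0.562 to 0.951 after transport and 0.258 to 1.06 in control skin (log2 fold change -0.12). The list of TNF receptors and ligands did match 8 tested genes, LOC113634305 and rell1 aside. Of these 8, edgeR called 0, against 0.247% lower and 0.37% higher among all genes tested. By raw p under 0.05 edgeR placed 2 lower and 1 higher, against 9.14% and 7.72%. DESeq2 called 0, against 5.12% lower and 4.38% higher, and limma 0, against 0.123% and 0.617%. With 8 genes and such shares, 0 calls say little about the family. The median log2 fold change of the 8 was -0.04, against -0.02 over all genes tested. The RELT family list matched rell1 alone.

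The partners of the interleukin-7 receptor were read with il7r. LOC113636124, like the common gamma chain, had an FPKM of 8.004, 3.31 and 4.86 in transport replicates 1, 2 and 3, against 5.47, 4.70 and 7.84 in control replicates 1, 2 and 3. il2rb, the beta subunit of the interleukin-2 receptor, had 3.12, 1.70 and 2.41 after transport, against 2.44, 2.18 and 5.62. The groups of both overlapped, with log2 fold changes of -0.50 ± 0.36 (SE, edgeR adjusted p = 0.506) and -0.79 ± 0.36 (SE, edgeR adjusted p = 0.325). The T cell kinase gene itk, a marker of T cells, had an FPKM of 19.3, 10.98 and 16.2 in transport libraries and 9.76, 11.3 and 22.2 in control libraries, with a log2 fold change of -0.18 ± 0.28 (SE, edgeR adjusted p = 0.763).
All 4 genes, il7r among them, had their lowest transport value in replicate 2 and their highest in replicate 1. In control skin il7r was highest in replicate 2, where the other 3 genes were highest in replicate 3. Over the 6 libraries Pearson's r of log2(FPKM + 0.5) with il7r was 0.66 for the gamma chain-like gene, 0.61 for il2rb and 0.55 for itk (Spearman's rho 0.31, 0.37 and 0.60), given as descriptions, since the genes of a library share its depth and cell make-up. The ratio of il7r to itk was 2.16, 1.66 and 1.96 in transport libraries and 2.60, 4.66 and 2.16 in control libraries, so control replicate 2 alone had a ratio above 2.60. The T cell markers itk and il2rb summed to an FPKM of 12.7 to 22.5 after transport and 12.2 to 27.9 in control skin, and their part in the level of il7r was not tested. Of downstream genes, the JAK2-like gene LOC113634259 had 8.67 to 18.04 after transport and 5.77 to 16.2 in control skin. akt2, a kinase gene of survival signalling, had 19.6 to 20.7 and 15.2 to 27.4. Divided by the TMM factors it had 17.3 to 18.6 after transport and 20.7 to 28.3 in control skin. These groups did not overlap, as for 10.9% of all genes tested in this direction. The log2 fold change of akt2 was -0.38 ± 0.16 (SE, edgeR adjusted p = 0.290).

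**Figure D4:**
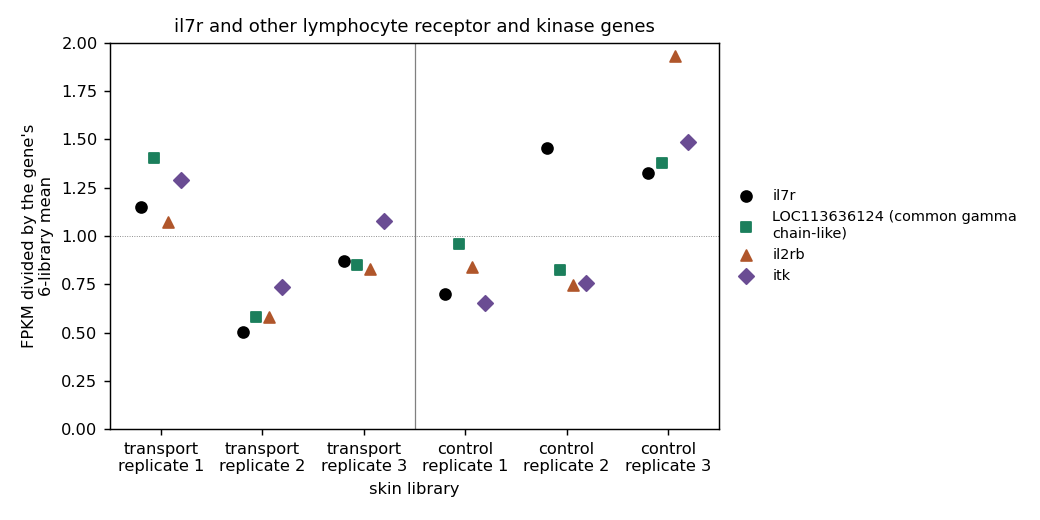
FPKM of il7r, the common gamma chain-like gene LOC113636124, il2rb and itk in each skin library (horizontal axis, transport left of control), each divided by the mean of that gene over the 6 libraries (vertical axis). All 4 genes are lowest among the transport libraries in replicate 2, and il7r is highest in control replicate 2, where the others lie below their means.

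The 3 genes had unlike profiles. Pearson's r of log2(FPKM + 0.5) over the 6 libraries was -0.79 for LOC113634305 with rell1, 0.30 for LOC113634305 with il7r and -0.17 for rell1 with il7r (Spearman's rho -0.77, 0.43 and -0.09). The 3 tested genes most like LOC113634305 by this r were the interleukin-1 beta-like gene LOC113635105 (0.967), LOC113635655, described as hyaluronan and proteoglycan link protein 3-like (0.945), and the desmin-like gene LOC113634430 (0.942). The link protein-like gene had an FPKM of 0.552, 2.29 and 0.988 after transport and 8.10, 5.74 and 6.51 in control skin. The desmin-like gene had 0.992, 1.61 and 2.00 after transport and 3.98, 5.45 and 13.98 in control skin. For rell1 the 3 were amt, the aminomethyltransferase gene of glycine breakdown (0.998), LOC113635472, a mitogen-activated kinase kinase kinase 11-like gene (0.996), and LOC113635322, like the fatty acid elongase ELOVL4 (0.996). For il7r they were lhpp, a phosphatase gene (0.978), the leukocyte elastase inhibitor-like gene LOC113634335 (0.977) and the sestrin-3-like gene LOC113636123 (0.941).
An r above 0.9 was shared with 230 other genes by rell1, and with 7 by LOC113634305 and 8 by il7r. The profile of rell1 as deposited, low in control replicate 1 and level in the transport libraries, was thus common in the table. Its median r over all tested genes was 0.64, against -0.32 for LOC113634305 and 0.15 for il7r. Every r was taken on FPKM not divided by the TMM factors, of which control replicate 1 had 0.712. Divided by them, rell1 was at 13.9, 13.9 and 15.2 in control libraries. With 6 libraries that fall into groups, a high r reflects the difference between the groups as well as the libraries within them.

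The cytokine-cytokine receptor interaction pathway held 44 genes of the table, and 25 of the 41 other than LOC113634305, rell1 and il7r were tested. Of these 25, edgeR called 0 after adjustment, against 0.247% lower and 0.37% higher among all genes tested. By raw p under 0.05 in edgeR, 11 were lower and 1 higher, against 9.14% lower and 7.72% higher among all genes tested. Apart from the chemokine gene cxcl14, the 11 lay in rows of neighbouring, similarly named copies. These were C-C motif chemokine 3-like and 18-like genes, interleukin-1 beta-like genes, and LOC113634312 and LOC113634303 beside LOC113634305. Such copies can share reads where their sequences are alike, which was not tested, so the 11 cannot be taken as separate changes. Some met the filter (mean FPKM of 0.5) only through the controls, such as LOC113635022 (means 0.158 after transport, 1.75 in control skin) and LOC113635024 (0.350 and 3.73). The 1 higher gene, LOC113634355, met it only through transport libraries (0.963 and 0.277). The filter thus favours such calls, and nothing is read from these counts. With DESeq2 the calls were 7 lower and 0 higher, against 5.12% and 4.38% of all genes, and with limma 1 was lower, against 0.123%. The median log2 fold change of the 25 was -0.50, against -0.02 over all genes tested. The study picked this pathway on the same libraries, so its direction is not independent evidence. The 4 smallest p belonged to ligand genes. LOC113635023, like C-C motif chemokine 18 of a family that attracts leukocytes, had an FPKM of 1.13, 0.629 and 0.590 after transport and 3.19, 2.90 and 3.08 in control skin (log2 fold change -2.30 ± 0.41 SE, edgeR adjusted p = 0.0749).
LOC113635103 and LOC113635105, both interleukin-1 beta-like, had log2 fold changes of -2.31 and -3.19, and LOC113635019, like C-C motif chemokine 3, had -2.36, with edgeR adjusted p of 0.128 to 0.143. Among the other receptors of the pathway, ackr3, an atypical receptor that takes up chemokines, had an FPKM of 51.3 to 57.1 after transport and 40.5 to 49.9 in control skin. Its groups did not overlap as deposited, as for 24.1% of all genes tested in this direction, but did with TMM factors. The log2 fold change of ackr3 was -0.04 ± 0.18 (SE). The interleukin-17 receptor A-like gene LOC113636084 stayed at or below an FPKM of 0.619 and was below the filter. LOC113634297, an uncharacterized gene further along the scaffold than the row of TNF receptor-like copies, had an FPKM of 1.85 to 3.63 after transport and 1.09 to 2.48 in control skin (log2 fold change 0.54 ± 0.34 SE, edgeR adjusted p = 0.446).

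The direction of the 3 estimates held under every setting tried. The genes were chosen for this difference and each setting used the same libraries, so that is not independent evidence. For LOC113634305 the log2 fold change was -2.97 to -1.53 over 16 alternatives, for rell1 0.64 to 0.99 and for il7r -1.002 to -0.46.

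**Figure D5:**
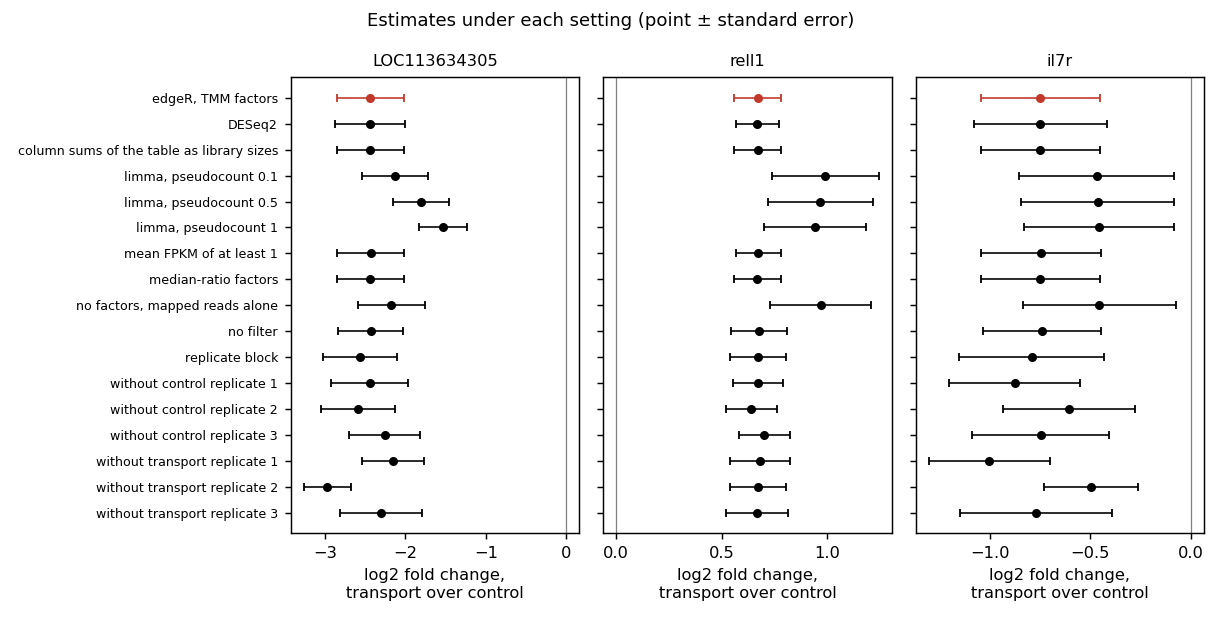
Log2 fold change of transport over control (horizontal axes, point ± standard error) of LOC113634305, rell1 and il7r under the fit reported (red, top) and 16 alternatives (black). The estimates stay on their side of 0, with LOC113634305 at -2.97 to -1.53, rell1 at 0.64 to 0.99 and il7r at -1.002 to -0.46. All settings use the same libraries, in which the 3 genes were chosen for their difference.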

How the data were processed

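Poly(A) RNA of skin was sequenced as paired reads in 3 transport and 3 control libraries. Cutadapt was used by the authors for trimming, HISAT for alignment and StringTie for transcript assembly and quantification. No source used here gives the versions, the genome build or the strandedness, and the study names human in its methods and yellow catfish in its results as the reference. The deposited table holds whole-number read counts per gene, with no normalization. It also holds FPKM as the authors obtained it from StringTie. Of its 2452 rows 1 was cut short and left out. Its other 12 value columns belong to samples not mapped here and were not used.

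The genes and gene lists were chosen with earlier results of these data known. The 1620 genes whose FPKM averaged 0.5 or more were tested in R 4.3.3 with edgeR 4.0.16 (quasi-likelihood, trended dispersion, condition as the only term), with the mapped reads that the study states as library sizes, TMM factors and Benjamini-Hochberg adjustment over all 1620. Standard errors follow from each fold change and its F statistic. DESeq2 1.42.0 and limma 3.58.1 on log2(FPKM + 0.5) were alternatives. Libraries of a group were not duplicates, with a chi-square per gene of 48.3 to 755. No source used here says that replicate numbers pair the libraries, and the fit treated them as unpaired. Plots were drawn with matplotlib 3.10.9.

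Named are the 3 genes, the genes of the same receptor family, up to 4 genes of smallest p per list, and the 3 genes most like each in profile. ackr3, LOC113634297 and LOC113636359 were named after their values were seen. The TNF receptor, CD40 and RELT, gamma chain, JAK-STAT and cell marker lists were matched by gene name, or by description for LOC numbers, which can be wrong. The lists of granulocyte and erythrocyte markers had 0 matches.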

Additional observations from a re-analysis of the deposited data

How the results depend on the processing

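Of the alternatives tried, edgeR with median-ratio factors, with column sums as library sizes, without a filter and with a mean FPKM of at least 1 left the 3 estimates within 1 SD of the libraries. For rell1 the log2 fold change was 0.97 with mapped reads alone, and 0.99, 0.97 and 0.94 in limma with pseudocounts of 0.1, 0.5 and 1. These fits correct for depth but use no TMM factors. For LOC113634305 it was -1.81 and -1.53 in limma with pseudocounts of 0.5 and 1, where a larger pseudocount shrinks low values. Leaving out each library in turn gave -2.97 to -2.16 for LOC113634305, 0.64 to 0.70 for rell1 and -1.002 to -0.50 for il7r.

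The number of genes called over all genes tested was 10 in the fit reported and 154 in DESeq2. It was 0 to 65 without each library in turn, with 65 without control replicate 3, 2 without control replicate 1, 3 without control replicate 2, 2 without transport replicate 2, and 0 without transport replicate 1 or 3, where 158 and 151 genes had an unadjusted p under 0.05. Of the other cytokine pathway genes, 7 were called in DESeq2, 1 in limma with a pseudocount of 0.5 or 1, and 0 to 1 without each library in turn. Of the 19 tested genes of the signalling lists, 4 were called in DESeq2 and 0 to 1 without each library in turn. The cause of these differences was not tested.

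With the replicate number as a block, edgeR called 0 genes (215 at an unadjusted p under 0.05), and the log2 fold changes were -2.56 for LOC113634305, 0.67 for rell1 and -0.79 for il7r. The sources used here do not say whether libraries with the same number belong together. The correlation of their deviations from the group means was -0.11, 0.08 and 0.09 for numbers 1, 2 and 3. Not every library correlated best with its own number. With 3 libraries per group the deviations are tied to each other, so these values cannot decide whether the numbers pair libraries. The lowest depth behind the 3 genes was 245 reads, for LOC113634305 in transport replicate 1.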
